A study of Mus musculus with 12 samples.

Results

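The genes described here are 42 interferon-stimulated antiviral genes of the mouse, comprising effector enzymes, nucleic acid sensors, and the STAT and IRF factors that drive them. They were chosen by gene name. The rule itself uses no measured value, but the genes were named with earlier results of these data known. The guanylate-binding and immunity-related GTPases and the MHC genes were left out by that rule. All 42 genes were present among the 55385 features of the liver RNA-Seq table, and all 42 were among the 16378 features tested, those with a mean of at least 1 TPM (transcripts scaled per length and to the same total in every library) over the mice. Each passed on a mean taken over all 3 groups.

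RNA-Seq had been done on livers of 12 male C57BL6 mice aged 7 weeks, 4 in each of 3 groups, to ask which genes depend on mGULL, a mouse long noncoding RNA, and which of them the human lncRNA hGULL restores. Ad-Ctrl mice received adenovirus with Lac together with the vector pAdv5, Ad-shmGULL mice received a short hairpin RNA against mGULL together with pAdv5, and Ad-shmGULL+hGULL mice received that hairpin together with hGULL. Every mouse received 500000000 plaque-forming units in total, and livers were taken on day 7. All groups thus carried adenovirus, itself a DNA virus, and no uninjected mouse is among the 12, so the levels below are those of virus-treated liver. The series text names an intravitreal route for this experiment, whereas the methods elsewhere describe retro-orbital delivery. The level of mGULL was not analysed here, and the extent of its loss in each mouse cannot be set beside the values. Hepatocyte markers summed to 85373 to 125731 TPM per mouse, so the markers of the labelled tissue were abundant in all 12. In a bulk sample, fewer cells of a type and less RNA per cell cannot be told apart.

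Type I interferons bind the receptor IFNAR, whose kinases JAK1 and TYK2 activate STAT factors, among them STAT2. Together with IRF9 these form the complex ISGF3, which binds interferon-stimulated response elements (ISRE) in promoters and switches on genes that bind or degrade viral RNA, block translation or trap virions. Interferon gamma acts through gamma-activated sites (GAS), and many genes, among them Irf1 and Cxcl10, respond to both. In liver, hepatocytes, Kupffer cells and endothelial cells all make these transcripts.

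The promoters of these genes were searched for the response elements. RefSeq promoter windows on GRCm38.p6, 250 bases before to 50 after each annotated start, were at hand for 31 of the 42 genes. The letters GAAANNGAAA, the core of the ISRE, were found on either strand in 15 of these 31 genes (48.4%), against 1079 of all 27025 genes with a window (3.99%). The letters TTCNNNGAA, the core of a GAS, were found in 7 (22.6%), against 9.55% of all genes. The CREB site TGACGTCA, searched as a site of another pathway, was found in 0 of the 31, against 2.03% of all genes. At so low a share, 0 of 31 cannot show a shortage, and only this full site was searched. Matches of the core and of the GAS can overlap, and each match describes letters in a window and not a bound site. The 6 stretches below are shown because they belong to genes described mouse by mouse later, 4 that fell after knockdown and 2 (Cxcl10 and Bst2) that were not called. They are written 5′ to 3′ on the gene's own strand, with matches to the ISRE core in capitals.
Ifit1 (chr19:34640765-34640833, plus strand): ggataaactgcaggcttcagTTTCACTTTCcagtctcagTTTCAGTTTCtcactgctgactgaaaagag
Isg15 (chr4:156200855-156200916, minus strand): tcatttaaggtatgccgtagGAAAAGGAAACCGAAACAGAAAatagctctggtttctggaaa
Oas1g (chr5:120887614-120887651, minus strand): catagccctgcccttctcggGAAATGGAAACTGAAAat
Rsad2 (chr12:26456543-26456592, minus strand): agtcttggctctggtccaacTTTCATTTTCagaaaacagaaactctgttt
Cxcl10 (chr5:92349073-92349122, minus strand): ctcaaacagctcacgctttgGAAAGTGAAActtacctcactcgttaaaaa
Bst2 (chr8:71537567-71537622, minus strand): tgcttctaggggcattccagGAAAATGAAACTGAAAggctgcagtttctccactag
In Isg15 3 overlapping matches form 1 run with 56 bases between it and the start, and in Oas1g 2 overlapping matches stand just before it. Windows of Oas2, Usp18, Mx1, Mx2, Dhx58, Zbp1, Parp9, Parp14, Rtp4, Ifi27 and Ifi27l2a were not used here.

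After mGULL knockdown a large part of this set was lower. Compared with Ad-Ctrl, 22 of the 42 genes fell in Ad-shmGULL by more than 0.5 on the log2 scale at a limma p under 0.05 before adjustment, and 0 rose. Over all tested genes 2.3% fell by the same rule. Because the set was named with earlier results of these data known, such shares describe it and do not test it. With a Benjamini-Hochberg adjusted p under 0.05 (limma, all tested genes), 7 fell (Ifit1, Isg15, Rsad2, Mx2, Cmpk2, Oas1g and Ifi44), where the share over all genes was 0.794%. Group means were lower for 41 of the 42, the exception being Lgals3bp, and for 34.5% of all tested genes. In 10 genes the 4 Ad-shmGULL mice all lay below the 4 Ad-Ctrl mice, as in 2.06% of all tested genes. On the log2 scale the 42 genes had a median fold change of −0.54 and the 16378 tested genes one of 0.09. With scaling by the median of ratios, the split of all called genes moved from 876 higher and 377 lower to 608 higher and 571 lower, and 29 of the 42 fell.

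The size of the decrease differed between mice. Ad-shmGULL replicate 1 had the lowest level of all 12 mice in 38 of the 42 genes, compared with 23.4% of all tested genes. Its median log2 difference from the Ad-Ctrl mean over the 42 was −1.002, and the other Ad-shmGULL mice stood at −0.24, −0.32 and −0.50, so all 4 lay on the lower side. Without replicate 1, 12 genes fell instead of 22 (Ifit1, Ifit3, Ifit3b, Oas1g, Isg15, Mx1, Mx2, Rsad2, Cmpk2, Irf7, Zbp1 and Ifi44), the median of the 42 was −0.37, and 5 passed the adjusted threshold (Ifit1, Mx2, Rsad2, Cmpk2 and Zbp1). Of all 16378 tested genes, 295 fell without that mouse and 377 with it, and their median without it was 0.12. Within the Ad-Ctrl group the genes also moved together, since replicate 1 was the highest of the group in 25 of the 42 and replicate 4 the lowest in 35.

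**Figure D1:**
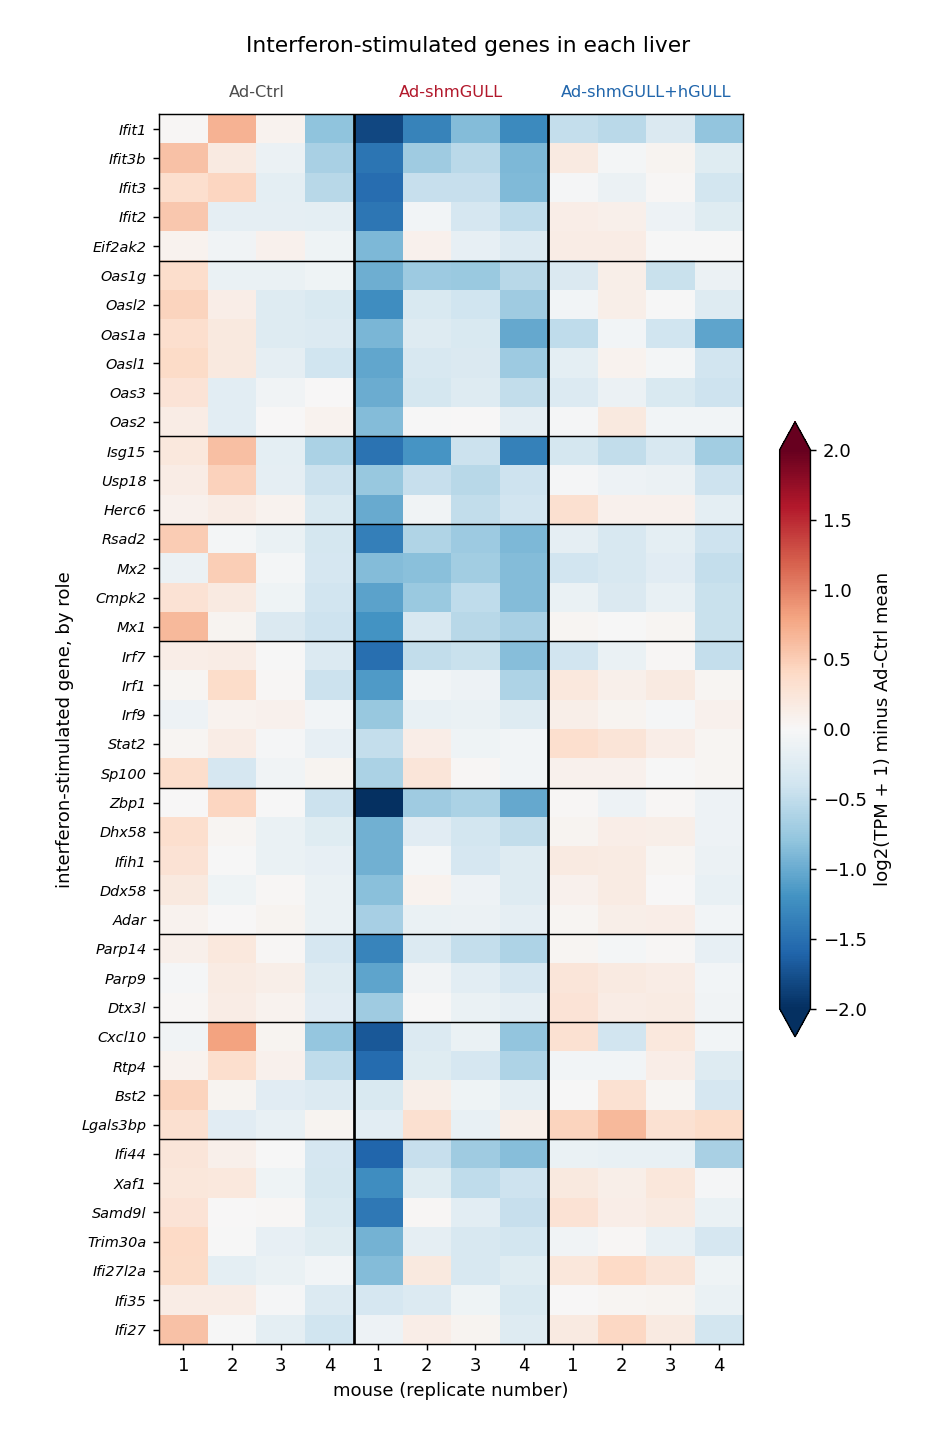
Each row is 1 of the 42 genes grouped by role and each column 1 mouse, with colour giving log2(TPM + 1) minus the Ad-Ctrl mean (blue lower, red higher, colours end at 2 in either direction). Ad-shmGULL replicate 1 is the deepest blue column, the other 3 Ad-shmGULL mice are blue in a smaller number of genes, and the Ad-shmGULL+hGULL mice are paler, with Ifit1, Isg15 and Oas1a blue and Lgals3bp red.

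Co-expression of hGULL went with higher levels of the same set. In Ad-shmGULL+hGULL, 42 of 42 group means were above those in Ad-shmGULL, as were 11615 of the 16378 over all tested genes. At the threshold of 0.5 and unadjusted p, 21 genes rose (all tested genes 2.33%). The groups did not overlap in 17 genes (all tested genes 5.4%). No member passed the Benjamini-Hochberg threshold in limma, 0 of the 42 and 0% of all tested genes, although 32 of the 42 and 1757 of all had an unadjusted p under 0.05, and the smallest adjusted p among the 42 was 0.318. The median log2 fold change was 0.54, against 0.09 over all genes. Without Ad-shmGULL replicate 1 only Ifit1, Ifit3b, Zbp1 and Xaf1 still rose, and the median was 0.34. Of all 16378 tested genes, 252 rose without that mouse and 382 with it, and their median without it was 0.06. This comparison shares the Ad-shmGULL mice with the one before it.

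Between Ad-shmGULL+hGULL and Ad-Ctrl, 0 of the 42 genes were called in either direction (all tested genes 7.49%), and 0 had an adjusted p under 0.05 in limma (all tested genes 2.15%). Only Mx2 and Lgals3bp had an unadjusted p under 0.05. Group means were lower in 22 genes and higher in 20, whereas 18.1% of all tested genes had a lower mean. The median of the 42 on the log2 scale was −0.01. The median over all genes was 0.17 here, so the 42 lay 0.18 below it. Scaling by the median of ratios took the shift of all genes away. After it, 41 of 42 group means were lower than in Ad-Ctrl (all tested genes 51.2%). The median of the 42 was then −0.21, and Ifit1, Oas1a, Isg15 and Mx2 were called lower. Other alternatives turned the sign. With array weights the median was 0.11, with 30 of the 42 fold changes positive (all-gene median 0.16). It was 0.07 without Ad-Ctrl replicate 1, 0.03 without Ad-Ctrl replicate 2 and 0.04 without hGULL replicate 4. The all-gene medians in these 3 were 0.21, 0.14 and 0.18. The largest differences before scaling were −0.52 for Ifit1 and −0.50 for Oas1a on the low side and 0.45 for Lgals3bp on the high side.

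**Figure D2:**
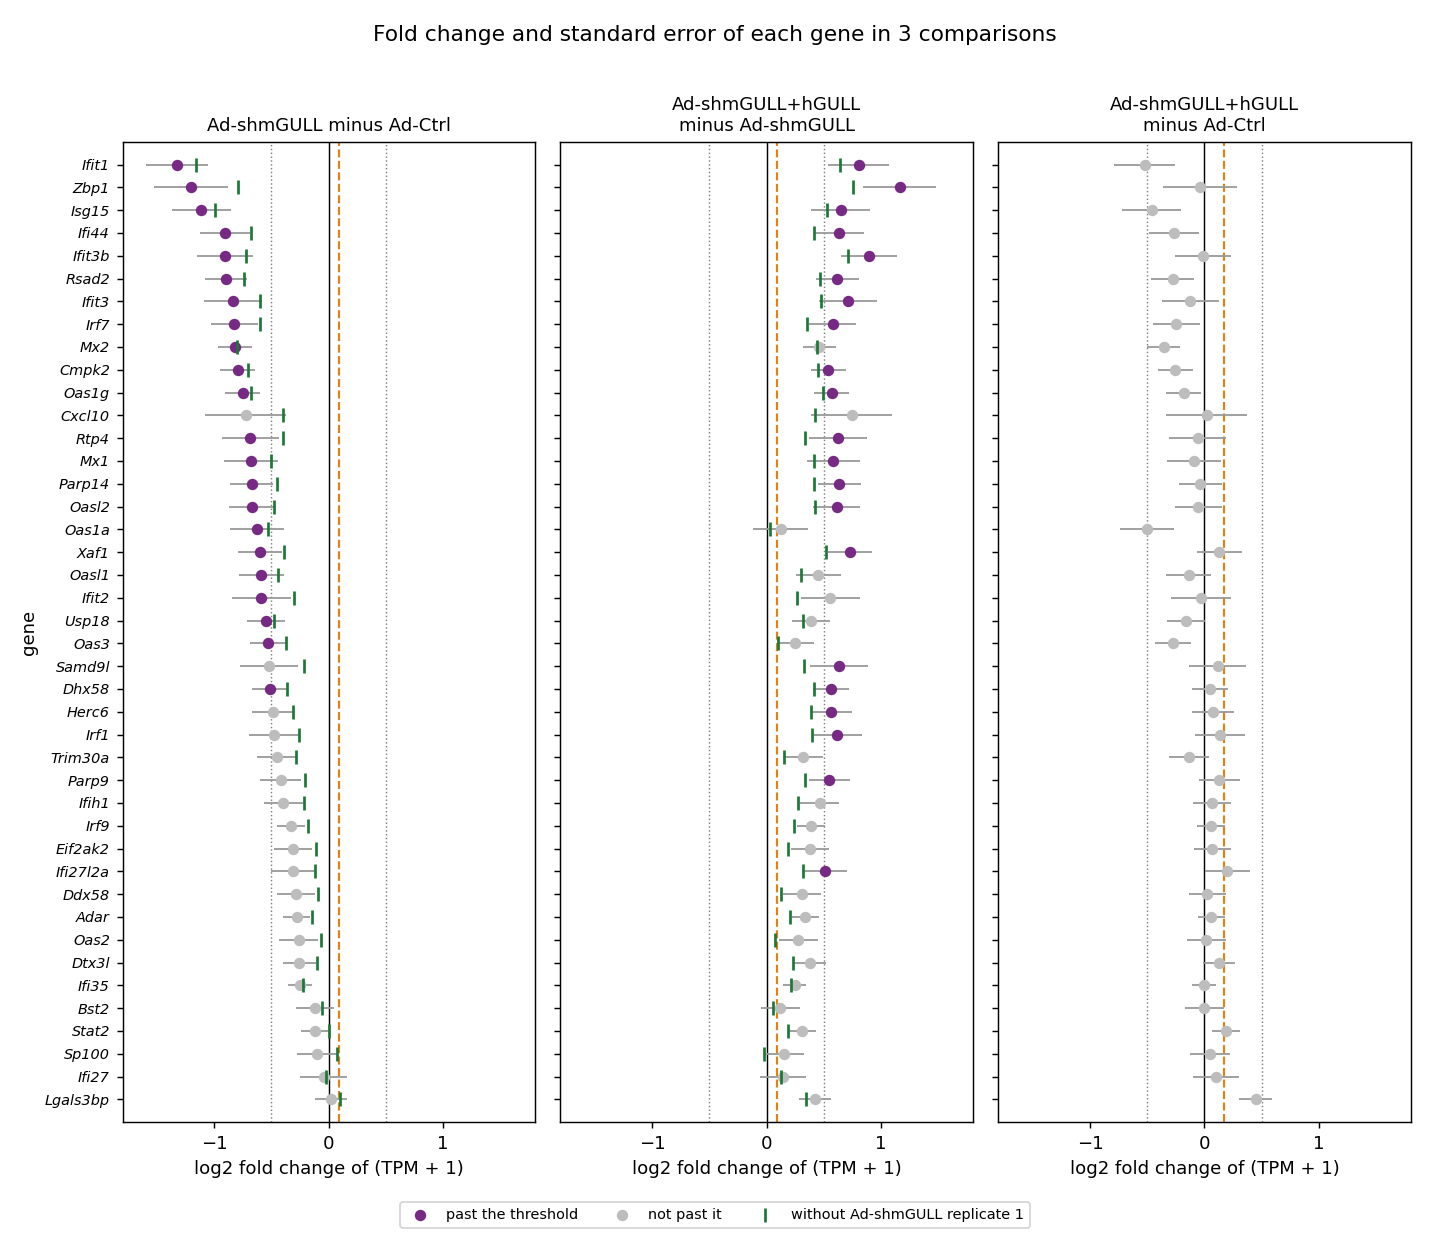
Points give the log2 fold change of (TPM + 1) of each gene in the 3 comparisons, bars 1 standard error, filled purple points those beyond 0.5 with an unadjusted p under 0.05, and green ticks the value without Ad-shmGULL replicate 1. The dashed orange line is the median of all tested genes (0.09, 0.09 and 0.17) and dotted lines mark 0.5 in each direction. All 42 points lie left of the orange line in the first panel and right of it in the second, and the green ticks sit closer to 0 than the points for most genes.

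The IFIT proteins bind foreign RNA and hinder its translation, and 4 of the 5 genes in this role fell after knockdown. Ifit1, whose product sequesters RNA lacking a self-type cap, had the largest decrease of all 42. It measured 46.7, 74.6, 48.3 and 25.9 TPM in the Ad-Ctrl mice, 12.3, 17.5, 24.7 and 18.3 TPM in Ad-shmGULL, and 32.6, 31.2, 37.3 and 26.1 TPM in Ad-shmGULL+hGULL. The Ad-shmGULL mice all lay below every other mouse, although their highest, at 24.7 TPM, was close to the lowest Ad-Ctrl mouse. The fold change was −1.33 ± 0.27 (log2, SE, n = 4 per group, adjusted p = 0.0238 in limma), and with hGULL it was 0.80 ± 0.27 (adjusted p = 0.388). Ifit1 reached 0.651 of its Ad-Ctrl mean with hGULL. Ifit2, Ifit3 and Ifit3b fell by 0.59, 0.83 and 0.90, with Ad-shmGULL replicate 1 lowest in each. Ifit3 and Ifit3b then rose by 0.71 and 0.89. The 4 Ifit genes lie side by side on chromosome 19, from 34550550 to 34650009 (GRCm38.p6), and Ifit3 and Ifit3b share 31.7% and 48.0% of their 50-base stretches with other genes, mainly each other, so how reads were divided between them is uncertain. Eif2ak2, the RNA-activated kinase PKR that shuts off translation, measured −0.31 ± 0.16 and was not called, its 3 other Ad-shmGULL mice at 21.2 to 27.5 TPM lying around the Ad-Ctrl range of 24.1 to 27.5 TPM.

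The oligoadenylate synthetases make the messenger that activates RNase L, and 5 of their 6 genes fell. Oas1g measured 7.73, 5.28, 5.26 and 5.50 TPM in Ad-Ctrl, 2.51, 3.15, 3.10 and 3.69 TPM in Ad-shmGULL, and 4.65, 6.44, 4.04 and 5.36 TPM in Ad-shmGULL+hGULL. Every Ad-shmGULL mouse lay below every mouse of the other groups. Oas1g changed by −0.75 ± 0.15 (adjusted p = 0.0255) and then 0.57 ± 0.15 (adjusted p = 0.318). Its neighbour Oas1a fell after knockdown and was not called with hGULL. It measured 20.1, 18.002, 12.97 and 12.8 TPM in Ad-Ctrl, 7.88, 12.9, 12.46 and 7.18 TPM in Ad-shmGULL, and 10.8, 15.1, 11.7 and 6.99 TPM in Ad-shmGULL+hGULL, so that the last groups overlapped fully. Its fold change was −0.63 ± 0.24 after knockdown and 0.12 ± 0.24 with hGULL. Oas1a and Oas1g share 43.5% and 55.4% of their 50-base stretches with other genes, nearly all with each other, and a difference between the pair is therefore uncertain. Oasl2, Oasl1 and Oas3 fell by 0.67, 0.59 and 0.53, of which Oasl2 rose again by 0.61. Oas2 measured −0.26 ± 0.17 and was not called.

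In the ISG15 system, where the ubiquitin-like ISG15 is joined to target proteins by HERC6 and removed by USP18, Isg15 and Usp18 fell. Isg15 measured 104, 137, 78.3 and 57.5 TPM in Ad-Ctrl, 31.6, 39.0, 65.9 and 34.3 TPM in Ad-shmGULL, and 69.7, 63.6, 71.8 and 54.9 TPM in Ad-shmGULL+hGULL. Ad-shmGULL replicate 3 overlapped both other groups, while its other mice lay below all 8. Isg15 changed by −1.11 ± 0.26 (adjusted p = 0.0395) and then 0.65 ± 0.26 (adjusted p = 0.421). Usp18, also a brake on IFNAR signalling, fell by 0.55 and measured 0.38 ± 0.17 with hGULL, while Herc6 measured −0.49 ± 0.18 and then rose by 0.56. Herc6 shares 18.4% of its 50-base stretches with the annotated gene Gm45193.

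The group of Mx1 and Mx2, genes of the MX GTPase family, and of viperin with its neighbouring kinase had 4 of 4 genes that fell. Of these, 3 fell at an adjusted p under 0.05 in limma. The values are transcript levels, and whether these mice make working MX protein was not examined. Rsad2, which encodes viperin, an enzyme making a chain-terminating nucleotide, measured 35.99, 24.2, 22.6 and 19.4 TPM in Ad-Ctrl, 9.05, 16.1, 14.7 and 12.9 TPM in Ad-shmGULL, and 21.9, 19.6, 21.6 and 18.5 TPM in Ad-shmGULL+hGULL. Cmpk2, a nucleotide kinase that lies next to Rsad2 on chromosome 12, measured 22.5, 20.7, 17.1 and 13.8 TPM in Ad-Ctrl, 8.18, 10.48, 12.48 and 9.57 TPM in Ad-shmGULL, and 16.4, 14.7, 16.3 and 13.1 TPM in Ad-shmGULL+hGULL. In both genes the Ad-shmGULL mice lay below all others without overlap. Rsad2 had a fold change of −0.90 ± 0.19 (adjusted p = 0.0260) and Cmpk2 of −0.79 ± 0.15 (adjusted p = 0.0194), and they rose by 0.62 and 0.54 with hGULL.

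Mx2 changed little when Ad-shmGULL replicate 1 was left out. It measured 12.7, 19.8, 13.4 and 10.7 TPM in Ad-Ctrl, 7.08, 7.26, 8.17 and 7.12 TPM in Ad-shmGULL, and 10.3, 10.8, 11.6 and 9.60 TPM in Ad-shmGULL+hGULL. The 4 Ad-shmGULL mice, between 7.08 and 8.17 TPM, lay below all 8 others. Its log2 fold change was −0.82 ± 0.15 (adjusted p = 0.0147, the lowest of the 42) and −0.80 without Ad-shmGULL replicate 1. With hGULL it was 0.46 ± 0.15, short of the 0.5 threshold, and the exact two-sided permutation test of 4 mice against 4 gave 0.0286, the smallest p that design allows. Mx1 fell by 0.68 and rose by 0.58, with Ad-shmGULL replicate 1 lowest at 3.77 TPM. Mx1 shares 4.8% of its 50-base stretches with Mx2. The annotation searched held 0 protein-coding stretches for Mx2, so its own share could not be given.

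**Figure D3:**
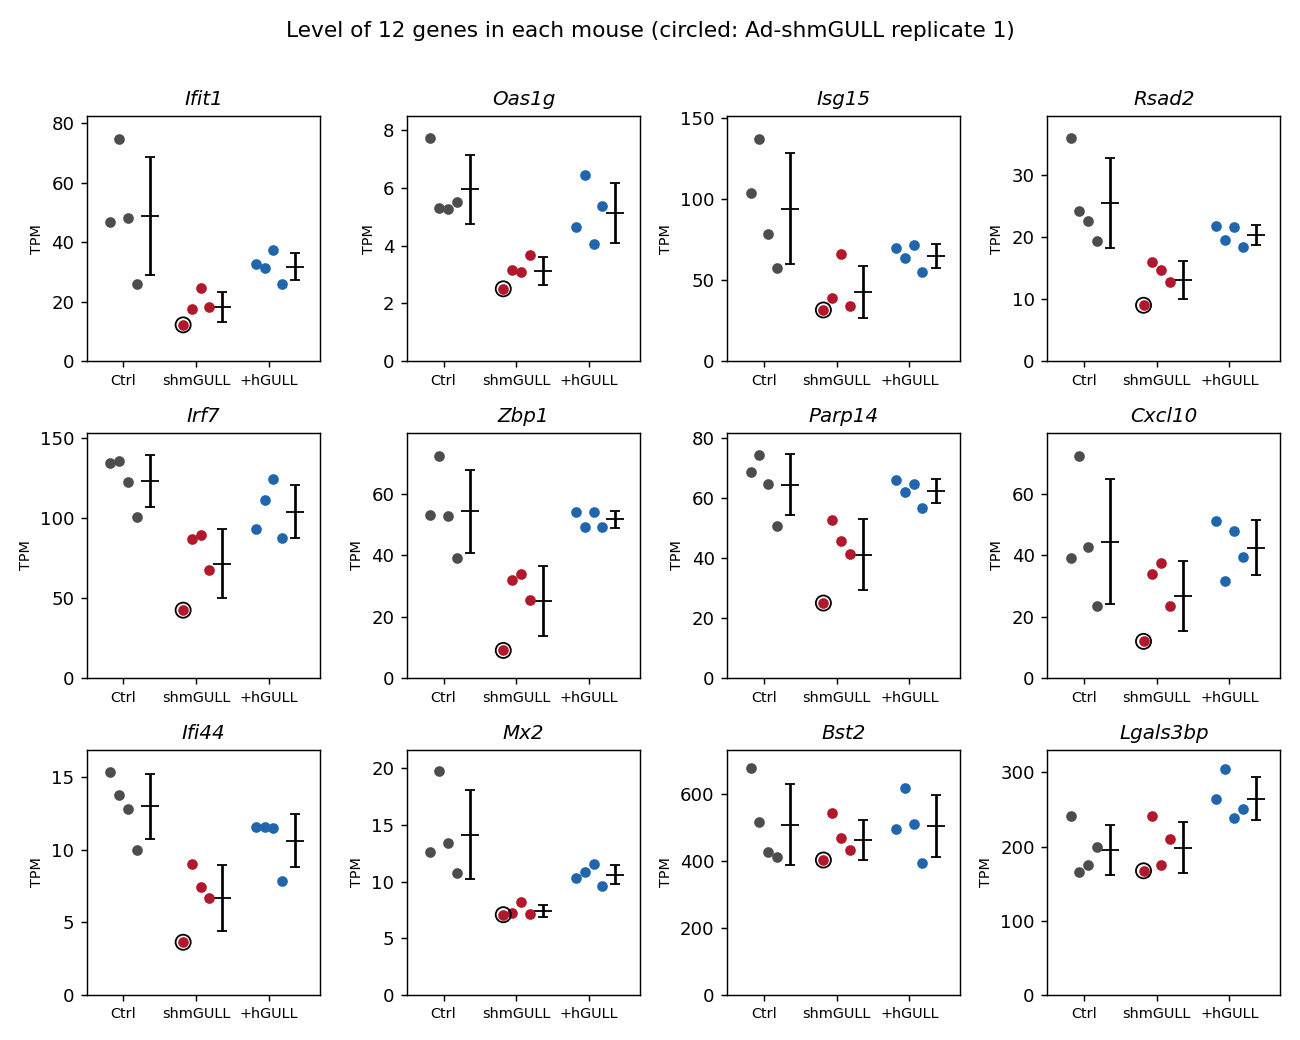
TPM of 12 of the genes in each mouse (points), with mean and SD of the 4 mice beside them, in Ad-Ctrl (Ctrl), Ad-shmGULL (shmGULL) and Ad-shmGULL+hGULL (+hGULL). In Ifit1, Oas1g, Rsad2, Irf7, Zbp1, Ifi44 and Mx2 all 4 Ad-shmGULL mice lie below all Ad-Ctrl mice, whereas in Bst2 and Lgals3bp the 2 groups overlap.

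Of the transcription factors, 1 of 5 fell. Irf7, the factor that amplifies interferon gene induction, measured 135, 136, 122 and 101 TPM in Ad-Ctrl, 42.4, 86.7, 89.2 and 67.7 TPM in Ad-shmGULL, and 93.2, 111, 124 and 87.5 TPM in Ad-shmGULL+hGULL. All Ad-shmGULL mice lay below all Ad-Ctrl mice, but 1 of them overlapped the mice with hGULL. Irf7 changed by −0.82 ± 0.21 (adjusted p = 0.0501) and then 0.58 ± 0.21 (adjusted p = 0.403). The genes of the ISGF3 subunits IRF9 and STAT2 were not called. Irf9 measured −0.33 ± 0.12 and its groups did not overlap (18.2 to 28.7 TPM against 29.2 to 33.6 TPM), while Stat2 measured −0.12 ± 0.12 and Sp100, a nuclear body protein, −0.10 ± 0.18. Irf1 measured −0.48 ± 0.22 and rose by 0.61 with hGULL.

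Sp100 held one value that turned with a single mouse. It measured 14.2, 8.47, 10.3 and 11.3 TPM in Ad-Ctrl, 6.70, 13.1, 11.1 and 10.5 TPM in Ad-shmGULL, and 11.6, 11.6, 10.8 and 11.3 TPM in Ad-shmGULL+hGULL. Without Ad-shmGULL replicate 1 its fold change after knockdown was 0.07 instead of −0.10.

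Among the nucleic acid sensors, Zbp1 and Dhx58 fell and the others were not called. Zbp1, a sensor of left-handed nucleic acid that triggers necroptosis, measured 53.3, 72.2, 52.7 and 39.1 TPM in Ad-Ctrl, 9.02, 32.0, 34.0 and 25.5 TPM in Ad-shmGULL, and 54.2, 49.2, 54.2 and 49.3 TPM in Ad-shmGULL+hGULL. The Ad-shmGULL mice lay below all 8 others, and the 4 mice with hGULL lay between 49.2 and 54.2 TPM. Zbp1 had a fold change of −1.20 ± 0.32 (adjusted p = 0.0618) and then 1.16 ± 0.32 (adjusted p = 0.318), the largest increase of the 42. Without Ad-shmGULL replicate 1 it was −0.79 and then 0.75, and the adjusted p of the decrease was then 0.0353, within a range of 0.0332 to 0.172 over the alternatives run. Dhx58, the regulator LGP2, fell by 0.51 and rose by 0.56. Ddx58 (RIG-I), Ifih1 (MDA5) and the RNA editing enzyme gene Adar measured −0.28 ± 0.16, −0.40 ± 0.17 and −0.28 ± 0.12.

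Parp14, Parp9 and Dtx3l lie together on chromosome 16, between 35831892 and 35972621, and encode ADP-ribosyltransferases and a ubiquitin ligase that works with PARP9. Parp14 measured 68.5, 74.1, 64.5 and 50.4 TPM in Ad-Ctrl, 25.0, 52.6, 45.5 and 41.2 TPM in Ad-shmGULL, and 65.8, 62.0, 64.7 and 56.5 TPM in Ad-shmGULL+hGULL. One Ad-shmGULL mouse overlapped Ad-Ctrl, and none overlapped the mice with hGULL. It fell by 0.67 (SE 0.19, adjusted p = 0.0710) and rose by 0.63. Without Ad-shmGULL replicate 1 the decrease was 0.46, under the threshold. Parp9 measured −0.42 ± 0.18 and rose by 0.55, and Dtx3l measured −0.25 ± 0.14 and 0.38 ± 0.14.

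Of the genes for membrane and secreted proteins, 1 of 4 was called. Rtp4, a chaperone of membrane receptors, fell by 0.68 and rose by 0.62, and shares 25.7% of its 50-base stretches with the annotated gene Gm45338. The chemokine gene Cxcl10, whose product draws T cells, measured 38.9, 72.2, 42.6 and 23.6 TPM in Ad-Ctrl, 11.9, 33.8, 37.3 and 23.4 TPM in Ad-shmGULL, and 51.0, 31.4, 47.8 and 39.3 TPM in Ad-shmGULL+hGULL. The groups overlapped, and its fold change of −0.72 ± 0.35 did not pass the test despite its size.

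Bst2 encodes tetherin, which holds budding virions at the membrane, and Lgals3bp a secreted glycoprotein that binds galectins. Per length, both were among the 3 most abundant of the 42, with Ifi27. Bst2 measured 676, 516, 427 and 412 TPM in Ad-Ctrl, 403, 542, 468 and 433 TPM in Ad-shmGULL, and 495, 617, 511 and 393 TPM in Ad-shmGULL+hGULL, with full overlap and a fold change of −0.12 ± 0.17. Lgals3bp measured 241, 166, 175 and 199.9 TPM in Ad-Ctrl, 167, 241, 175 and 210.3 TPM in Ad-shmGULL, and 265, 305, 239 and 250.7 TPM in Ad-shmGULL+hGULL. It was the only member whose mean was not lower after knockdown (0.02 ± 0.14, with the sign turning under other scalings), and in the mice with hGULL it was 0.45 ± 0.14 above Ad-Ctrl (adjusted p = 0.0918).

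Of the remaining 7 induced genes, Ifi44 and Xaf1 fell. Ifi44 measured 15.4, 13.8, 12.8 and 10.006 TPM in Ad-Ctrl, 3.63, 9.03, 7.45 and 6.65 TPM in Ad-shmGULL, and 11.6, 11.6, 11.5 and 7.89 TPM in Ad-shmGULL+hGULL. All Ad-shmGULL mice lay below all Ad-Ctrl mice, and only the mouse with hGULL at 7.89 TPM lay in their range. Ifi44 changed by −0.90 ± 0.22 (adjusted p = 0.0441) and then 0.64 ± 0.22. Xaf1, a promoter of apoptosis, fell by 0.60 and rose by 0.73. Samd9l, an antiviral factor that inhibits translation, measured −0.52 ± 0.25 without passing the p threshold and rose by 0.63. Trim30a measured −0.45 ± 0.17 and Ifi35 −0.25 ± 0.10.

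Ifi27 measured 405, 269.9, 237 and 205 TPM in Ad-Ctrl, 252, 295, 280.3 and 226 TPM in Ad-shmGULL, and 306, 360.5, 305 and 209 TPM in Ad-shmGULL+hGULL, with a fold change of −0.04 ± 0.20. Without Ad-Ctrl replicate 1, its highest mouse, the value was 0.15. Its annotated span on chromosome 12 lies inside that of Ifi27l2a, which measured −0.31 ± 0.20 and rose by 0.51. Ifi27l2a shares only 0.16% of its 50-base stretches with other genes. How reads were assigned where the spans overlap was not examined.

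Genes with and without the ISRE core in the promoter window were both among those called. After knockdown 8 of the 15 genes with a match fell (53.3%, median −0.63), as did 7 of the 16 with a window and no match (43.8%, median −0.50). With hGULL 6 of the 15 and 8 of the 16 rose. Bst2 and Stat2 carry the core and were not called, and Irf7, Ifi44 and Cmpk2 fell with no match in the window. These shares are descriptions and were not tested.

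The 42 genes varied together from mouse to mouse. Over the 12 mice, which differ in group, the Pearson correlation of each gene with the mean of the 42 (each gene standardised, itself included) was highest for Oasl2 (0.983), Dhx58 (0.982) and Parp14 (0.976) and lowest for Lgals3bp (0.464), Ifi27 (0.543), Sp100 (0.651) and Bst2 (0.684). The median coefficient of variation of the 42 was 20.5% in Ad-Ctrl, 27.2% in Ad-shmGULL and 10.9% in Ad-shmGULL+hGULL, while that of all tested genes was 15.3%, 18.9% and 10.2%. Without replicate 1, the Ad-shmGULL value of the 42 was 13.6% and that of all tested genes 15.5%. Outside the lists used here, the genes with the most similar profile were Gbp3 (r = 0.975), Calhm6 (0.975), Meiob (0.968), Gm12185 (0.966), Samhd1 (0.964), Gbp6 (0.963), Gbp9 (0.960), Nub1 (0.958), Trim30d (0.956) and AW112010 (0.956), each over the same 12 mice and libraries.

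Upstream of these genes, the interferons themselves were near the floor of the table. All 21 interferon ligand genes listed were under the filter, 14 of them at 0 in every mouse, and their sum was at most 1.12 TPM in any mouse, so no ligand could be tested. The receptor and its kinases were present at similar levels in all groups. Ifnar1 averaged 30.6 ± 1.92 TPM (SD, n = 4) in Ad-Ctrl, 32.1 ± 4.83 TPM in Ad-shmGULL and 33.6 ± 0.865 TPM with hGULL, and Ifnar2 averaged 36.4 ± 2.92, 33.4 ± 3.54 and 34.4 ± 1.02 TPM. Their fold changes after knockdown were 0.06 ± 0.10 and −0.12 ± 0.09, and those of Jak1 and Tyk2 were both 0.05 ± 0.09.

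Among 12 negative regulators, Socs1, an induced inhibitor of the JAK kinases, fell by 0.61 and rose by 0.65, and Trim21, an antibody receptor that marks proteins for degradation, rose by 0.51 with hGULL. Without Ad-shmGULL replicate 1, 0 of the 12 were called by limma in these comparisons. A further 67 tested interferon-stimulated genes gave 19 that fell and 0 that rose after knockdown, with 3 at an adjusted p under 0.05 and a median of −0.32. Over all tested genes 2.3% fell, and 529 of 16378 had an adjusted p under 0.05 in either direction. The 5 largest were Phf11c (−1.33 ± 0.41), the chemokine gene Cxcl9 (−0.94 ± 0.43), Cd274, which encodes PD-L1 (−0.89 ± 0.28), the surface antigen gene Ly6a (−0.83 ± 0.34) and the helicase gene Ddx60 (−0.83 ± 0.18). Without Ad-shmGULL replicate 1, 9 fell (295 of all 16378 tested genes). With hGULL 13 of the 67 rose (4 without that mouse), led by Cxcl9 at 1.01 ± 0.43, where 2.33% of all tested genes rose. Against Ad-Ctrl only Ifitm2 (0.62 ± 0.22) and Slfn9 (0.84 ± 0.21) were called, both higher (all tested genes 7.49% in either direction). None of these genes passed the adjusted threshold in the comparison of hGULL with knockdown.

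Markers of the other cells in liver were summed in each mouse, since these genes are expressed in immune cells as well. T and NK cell markers, 14 of 15 tested, summed to 40.3 to 133 TPM in Ad-Ctrl, 40.4 to 88.8 TPM in Ad-shmGULL and 70.2 to 96.5 TPM with hGULL, and none was called after knockdown. Kupffer cell and macrophage markers summed to 812 to 1366 TPM, 801 to 1355 TPM and 974 to 1212 TPM, with only Marco lower after knockdown, by 1.04, and 0 called without Ad-shmGULL replicate 1. Dendritic cell markers summed to 19.7 to 33.1 TPM, 18.1 to 31.2 TPM and 25.1 to 26.8 TPM, with none called. Ad-shmGULL replicate 1 had the lowest sum of its group in these 3 lists, at 40.4, 801 and 18.1 TPM. Ad-Ctrl replicate 2 had sums close to these, at 40.3, 812 and 19.7 TPM, and its median over the 42 genes was 0.14 above the Ad-Ctrl mean. These are single mice, and a link between the sums and the 42 genes was not tested.

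The remaining lists differed in other ways. Monocyte and neutrophil markers summed to 142 to 294 TPM in Ad-Ctrl, 161 to 328 TPM in Ad-shmGULL and 129.6 to 179.7 TPM with hGULL, where S100a8 and S100a9 fell by 0.78 and 0.84 relative to Ad-shmGULL. B cell markers summed to 7.81 to 11.8 TPM, 10.45 to 13.3 TPM and 7.57 to 8.77 TPM, with none called. Sinusoidal endothelial markers summed to 139 to 241 TPM, 227 to 307 TPM and 224 to 265 TPM, and Oit3 and Stab2 rose after knockdown by 0.53 and 0.54. The T cell effector gene Gzmb rose by 1.03 with hGULL. None of Gzmb, S100a8 and S100a9 was called without Ad-shmGULL replicate 1. Among hepatocyte markers Cyp3a11 rose by 0.78 and Tat and Apoa1 fell by 0.80 and 0.60 after knockdown. None of the markers in these 7 lists was at 0 in every mouse, and the part of these cells in the result was not tested.

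**Figure D4:**
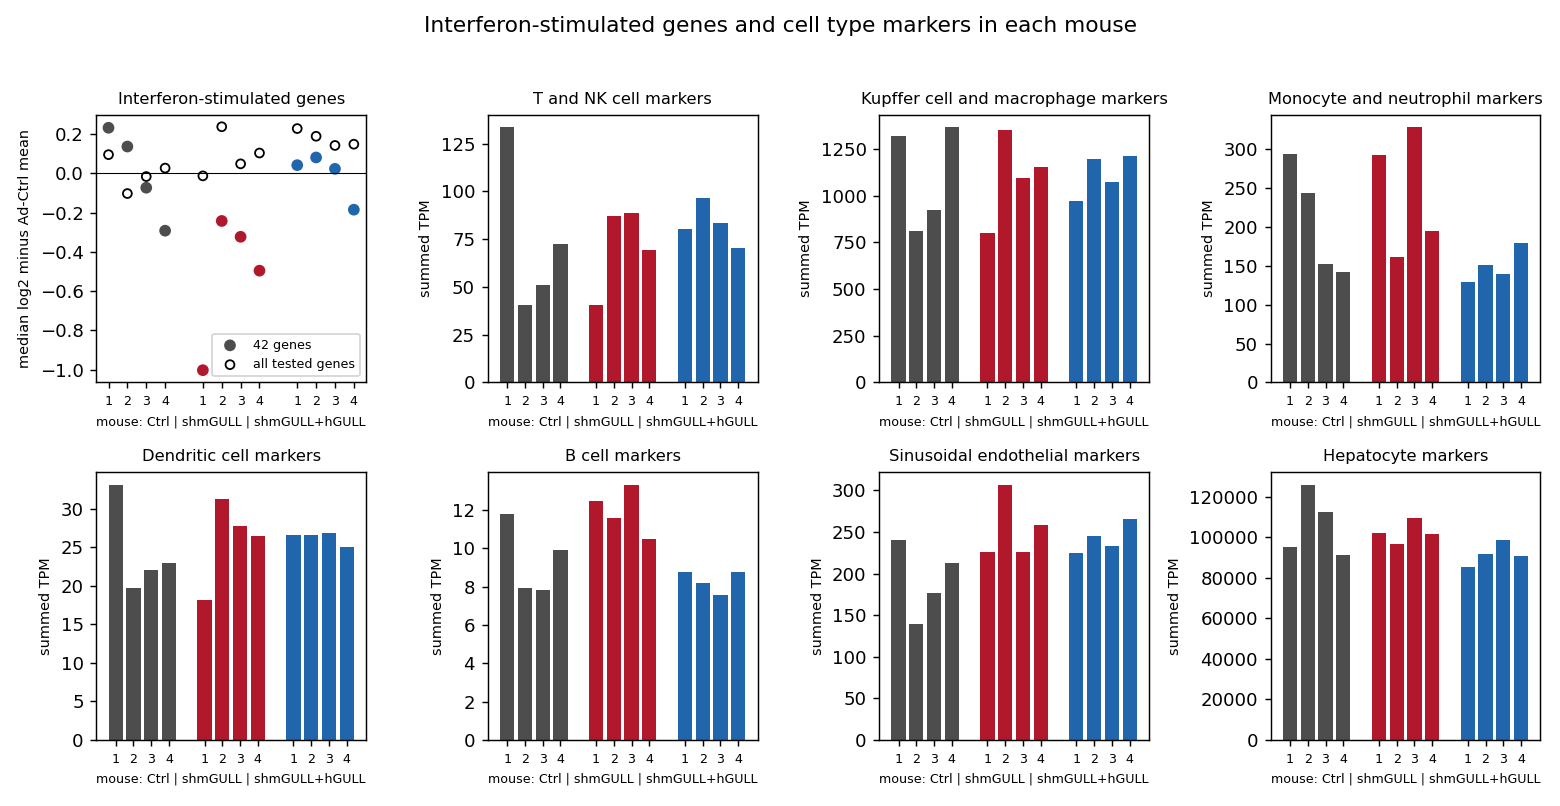
The first panel gives, for each mouse, the median over the 42 genes (filled) and over all tested genes (open) of log2(TPM + 1) minus the Ad-Ctrl mean, and the other panels give the summed TPM of each marker list per mouse (bars from 0, grey Ad-Ctrl, red Ad-shmGULL, blue Ad-shmGULL+hGULL). The 4 red points of the first panel lie at −1.002, −0.24, −0.32 and −0.50 with all-gene medians near or above 0, and Ad-shmGULL replicate 1 has the lowest red bar for T and NK, Kupffer and dendritic cell markers.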

How the data were processed

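Liver RNA-Seq of 12 mice was analysed from the deposited table. According to the submitters' processing notes and the methods, the authors trimmed strand-specific reads with fastp 0.23.2, checked them with FastQC 0.11.8, aligned them to GRCm38.p6 with HISAT2 2.2.1.0, used featureCounts of Subread 2.0 with the GENCODE VM24 annotation, and deposited the values as TPM. How counts became TPM is not given in the sources used here. Every library sums to 1000000 TPM, so depth is unknown, no counting interval or detection limit is given, and precision comes from the spread between the 4 mice of a group. Between 15525 and 16929 features reached 1 TPM in a mouse, and 24.6% to 34.2% of the TPM went to the 20 highest. Nothing states separate litters or days for the mice, and the p-values measure the spread between these samples.

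Values were analysed as log2(TPM + 1) in R 4.3.3 with limma 3.58.1, with 1 model over the 3 groups, no covariate, empirical Bayes with a mean-variance trend and Benjamini-Hochberg adjustment over the 16378 features with a mean TPM of at least 1. Fold changes on this scale understate changes of low genes. A gene was called, and is said to have risen or fallen, when it changed by more than 0.5 on the log2 scale at p under 0.05 before adjustment, the rule of the study's methods. For single genes the 4 mice of a group were also set against 4 others in an exact permutation test, two-sided (scipy 1.17.1, Python 3.11.15). The procedure was tested on simulated data. Groups came from the sample labels.

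The members and lists were chosen with earlier results of these data known. Given in full were the member with the largest change after knockdown in each role, others to about 12, and members that went against their group. From the other lists the called genes were named, at most 5 a list, besides Ifnar1, Ifnar2, Jak1 and Tyk2, and from genes in no list the 10 most correlated. Results for 1 listed signalling gene are left out here. Promoter windows and positions are those of RefSeq for GRCm38.p6. Shared stretches are the share of 50-base words found in the transcripts of another gene of GENCODE vM39, which is a later annotation than the one counted. Alternatives covered the filter (none, or a mean TPM of at least 5), the pseudocount (0.1), the scaling (median of ratios, quantiles, or the sum left by removing the 20 highest genes), the model (no trend, array weights, the 2 compared groups alone, the replicate number as a block), each mouse left out in turn, and a promoter window of the 250 bases before the start. Figures were drawn with matplotlib 3.10.9.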

Additional observations from a re-analysis of the deposited data

Results flagged for a closer look

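In 7 of 126 sets of 4 mice (42 genes in 3 groups, 5.56%), 1 mouse stood further from the other 3 than Dixon's critical value at the 95% level for 4 samples allows, and chance gives about 1 in 20. Ad-Ctrl replicate 1 stood high in Ifit2 (28.4 TPM against 16.7 to 16.9 TPM in the others, gap to range ratio 0.982) and in Oas1g (7.73 against 5.26 to 5.50 TPM, 0.902). Ad-shmGULL replicate 1 stood low in Adar (15.3 against 21.8 to 22.9 TPM, 0.863), and Ad-shmGULL replicate 3 stood high in Mx2 (8.17 against 7.08 to 7.26 TPM, 0.836). Among mice with hGULL, replicate 4 stood low in Mx1 (7.01 against 9.91 to 10.3 TPM, 0.884) and in Ifi44 (7.89 against 11.5 to 11.6 TPM, 0.981), and replicate 2 stood high in Oas2 (11.9 against 9.92 to 10.2 TPM, 0.868).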

How the results depend on the processing

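The direction of the median over the 42 genes after knockdown, and with hGULL against knockdown, did not turn under any alternative run. With hGULL against Ad-Ctrl the median, near 0 in the main run, did change sign. After knockdown, 22 genes fell (all tested genes 377), 12 with array weights (355) and 12 to 29 when each mouse was left out. The lowest count was without Ad-shmGULL replicate 1 (all tested genes 295). The 7 genes at an adjusted p under 0.05 became 2 with no filter, 15 with median-of-ratios scaling, 14 with quantile normalization, 0 with only the 2 groups compared, 2 with array weights, and 1 to 11 when each mouse was left out (1 without Ad-Ctrl replicate 2, 2 without Ad-Ctrl replicate 3, 4 without Ad-shmGULL replicate 2 or 4, 11 without Ad-shmGULL replicate 3). Over all tested genes that count, in either direction, moved as well, from 529 to 236 with no filter and 683 with median-of-ratios scaling. It was 627 with quantile normalization, 33 with only the 2 groups compared and 481 with array weights. Leaving out each mouse gave 165 (Ad-Ctrl replicate 3) to 1057 (Ad-shmGULL replicate 3). With hGULL against knockdown, 21 genes rose (all tested genes 382), 13 with median-of-ratios scaling (250) and 4 to 26 when each mouse was left out. Median-of-ratios scaling without Ad-shmGULL replicate 1, an alternative chosen after seeing the data, left 2 that rose (all tested genes 186). For knockdown against Ad-Ctrl the same alternative gave 21 that fell (all tested genes 528). Of the 42, 9 had an adjusted p under 0.05 in limma (389 of all, in either direction). With hGULL against Ad-Ctrl, 0 genes were called, 4 with median-of-ratios scaling, 4 with quantile normalization, 4 with median-of-ratios scaling without Ad-shmGULL replicate 1, 2 with rescaling without the 20 highest genes, 1 with only the 2 groups compared and 0 to 3 when each mouse was left out (3 without Ad-Ctrl replicate 4, 1 without Ad-Ctrl replicate 1 or 3, Ad-shmGULL replicate 4 or hGULL replicate 2). Over all tested genes 1226 were called, 721 with median-of-ratios scaling and 701 with quantile normalization. At an adjusted p under 0.05 the count of 0 members became 1 with array weights and 0 to 1 when each mouse was left out (1 without Ad-Ctrl replicate 1). The count over all tested genes was 352, 3184 with array weights and 1068 without Ad-Ctrl replicate 1. The causes were not tested.

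The replicate numbers do not mark a stated pairing, and same-numbered mice deviated together with correlations of −0.24 to 0.15 (2 of 12 above 0.1). With the replicate number as a block, 21 genes fell after knockdown (all tested genes 396). Of the 42, 5 had an adjusted p under 0.05 (418 of all, in either direction). With that block 21 rose with hGULL (all tested genes 400), and 1 was called between hGULL and Ad-Ctrl (all tested genes 1239).

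Values near 0 changed sign. After knockdown Lgals3bp was −0.087 with median-of-ratios scaling, −0.038 with quantile normalization, −0.0037 with rescaling without the 20 highest genes, −0.053 with median-of-ratios scaling without Ad-shmGULL replicate 1, and −0.076 to 0.13 when each mouse was left out. Ifi27 was 0.063 with array weights. When each mouse was left out, Ifi27 ranged from −0.17 to 0.15, Bst2 from −0.21 to 0.029 and Sp100 from −0.22 to 0.071. With hGULL against knockdown, leaving out each mouse gave −0.028 to 0.31 for Oas1a and −0.021 to 0.27 for Sp100, and median-of-ratios scaling without Ad-shmGULL replicate 1 gave −0.019 and −0.068. In the 250 bases before the start alone, 12 of 31 genes held the ISRE core (38.7%, all genes 3.46%). Depth is unknown, so what it limits could not be stated.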
